A study of Mus musculus with 16 samples.

Results

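The HOX genes of the mouse were followed in primary lung fibroblasts after knockdown of 3 lysyl oxidase family genes. Every non-control probe whose gene name in the scanner files is a member of the A, B, C or D cluster followed by its paralog number was taken, which gave 39 genes measured by 45 probes, of 34650 gene names and 55681 probes on the array. Of these genes 33 had 1 probe and 6 had 2, numbered here by brightness (probe 1 is the brighter). The cells had been passaged at least 3 times and were harvested 48 h after transfection with siRNA. The group scr got a scrambled control siRNA, and in siLox the siRNA targeted Lox, in siLoxL1 it targeted Loxl1 and in siLoxL2 Loxl2. There were 4 single-colour Agilent arrays in each of the 4 groups, 16 in all, and all groups had therefore been through isolation, passaging and transfection. The strain, age and sex of the mice, the number of animals and the siRNA sequences were not given in the sources used here. Nothing in the labels said whether replicates came from separate animals or cultures, so the p-values measure the spread between these samples, which may be technical.

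HOX proteins are transcription factors that carry a homeodomain, and their genes lie in clusters named A to D in an order that follows their expression along the body axis. Members near the start of a cluster, with low paralog numbers, are active furthest forward in the embryo, and members with high numbers mark the posterior trunk, the genital region and the distal limb. Fibroblasts in culture keep a HOX pattern of the body site they came from. In the lung mesenchyme Hoxa5 is needed for normal airway and alveolar development, and anterior and middle genes of the A and B clusters are expressed alongside it.

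Levels are given as the log2 of the processed signal minus that array's 75th percentile, so that 0 stands for a probe at the 75th percentile of its array. They were compared between arrays for the same probe, never between probes. A probe was called well above background in a group when the scanner software had flagged it so on all 4 arrays of the group. All scr and siLox arrays were on 1 slide (slide 1) and all siLoxL1 and siLoxL2 arrays on another (slide 2), scanned separately, with each group in its own row of the slide. On slide 1 between 49.2% and 52.3% of spots were well above background, and on slide 2 between 60.4% and 63.1%. Detection was therefore compared within a slide, and in comparisons across slides the siRNA and the slide cannot be told apart. Within a slide, the group and the row cannot be told apart either. The targeted genes were lower in their groups. Both Lox probes fell in siLox, to 13.2% and 22.3% of scr, and both Loxl1 probes fell in siLoxL1, to 41.5% and 44.9% of siLoxL2. Of the 3 Loxl2 probes, 2 were higher in siLoxL1 than in siLoxL2, at 127% and 130%, and the remaining one stood at 123% with a limma adjusted p of 0.063. Fibroblast markers were well above background with 8 of 8 probes in every group. Of 10 probes for epithelial markers 5 were so in scr, among them probes of Krt8, Krt18 and Krt19. Epcam, Cdh1 and Sftpc of that list were well above background on no array. Markers of other cells were also detected in scr, with 5 of 5 mesothelial, 13 of 16 leukocyte and macrophage and 5 of 8 endothelial probes.

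The fibroblasts expressed HOX genes of the A and B clusters and a few of the C cluster, and almost none of the D cluster. Of the 39 genes, 21 had a probe well above background in scr, 20 in siLox, 23 in siLoxL1 and 22 in siLoxL2, and 19 did in all 4 groups. By probes this was 48.9% of the HOX probes in scr and 46.7% in siLox, beside 46.3% and 46.1% of all probes on the array. On slide 2 it was 57.8% in siLoxL1 and 51.1% in siLoxL2, beside 57.0% and 56.3% of all probes.

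In the A cluster, Hoxa2, Hoxa3, Hoxa4, Hoxa5, Hoxa6 and Hoxa7 were well above background in all 4 groups. Hoxa9 was dim and reached the mark on all 4 arrays of scr, siLoxL1 and siLoxL2 but on 3 of siLox. Hoxa11, a gene of limb and uterine patterning, passed on all 8 arrays of slide 1 and on none of slide 2. Hoxa10 passed on 2 siLoxL2 arrays alone, with levels of -2.97 and -4.70 there against -7.96 and -8.08 on the other 2 arrays of that group. Hoxa13 passed on no array.

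In the B cluster, the unbroken run from Hoxb2 to Hoxb9 (Hoxb2, Hoxb3, Hoxb4, Hoxb5, Hoxb6, Hoxb7, Hoxb8 and Hoxb9) was well above background in all 4 groups. Hoxb1, a hindbrain gene at the anterior end, was read by a probe with 10 spots per array and passed on none. Hoxb13, the posterior end of the cluster, passed on all 8 arrays of slide 2, on 1 of 4 scr arrays and on no siLox array.

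In the C cluster, Hoxc4, Hoxc5, Hoxc6 and the dim Hoxc13 passed in every group. Hoxc9 passed on 4 siLoxL1, 2 siLoxL2, 1 siLox and no scr arrays, and Hoxc12 on 2 scr arrays only. Hoxc8, Hoxc10 and Hoxc11 passed on no array. In the D cluster no gene of 9 passed in scr or siLox, and Hoxd8 alone passed in siLoxL1 and siLoxL2. Hoxd13, a gene of the digits and genital tubercle, passed on 3 scr, 2 siLox and 1 siLoxL2 arrays. Hoxd11 passed on a single siLox array, at -1.59 where the other arrays of that group lay between -6.65 and -5.15. Hoxd1, Hoxd3, Hoxd4, Hoxd9, Hoxd10 and Hoxd12 passed on none. Over the whole family 11 genes passed on no array at all.

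**Figure D1:**
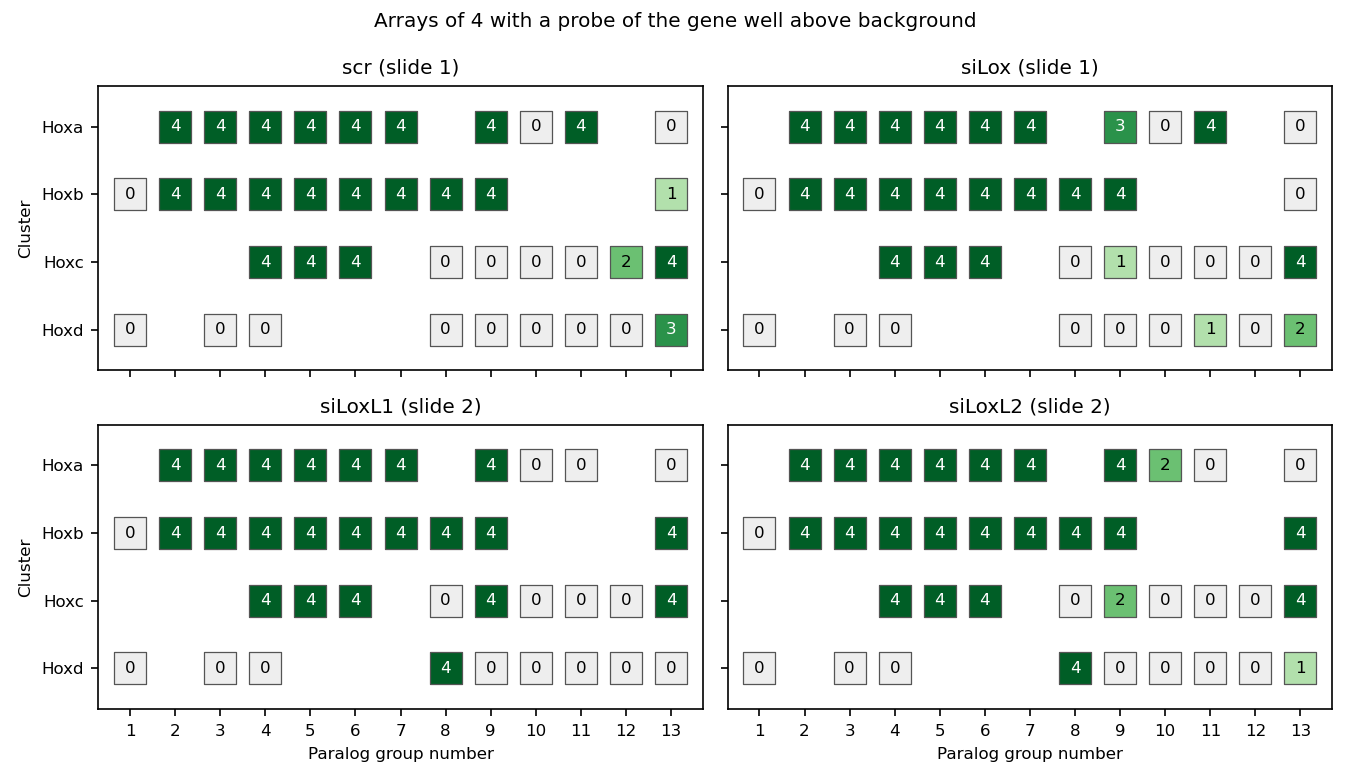
Number of arrays, of 4 per group, on which a probe of each HOX gene was well above background, by cluster (vertical axis) and paralog group number (horizontal axis); blank positions have no gene measured or are not shown. The A and B clusters are filled to paralog group 7 or 9 in every panel, while the D cluster reaches 4 arrays only for Hoxd8 on slide 2.

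By paralog number the detected genes sat in the front and middle of the clusters. Of the 8 measured genes of paralog groups 1 to 3, 5 passed in all 4 groups. Of the 15 genes of groups 4 to 8, 12 did. Of the 16 genes of groups 9 to 13, 2 did: Hoxb9 and Hoxc13. Of the 3 genes of groups 1 to 3 that did not pass, Hoxd1 and Hoxd3 belong to the D cluster and Hoxb1 to the B cluster.

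The probe sequences show where within some of these genes the signal was read, and those of Hoxa6 and Hoxc11 are given because they lie in parts of the coding sequence that define the family. In the Hoxa6 probe the capitals mark the bases encoding the hexapeptide core by which HOX proteins contact their PBX partners. In the Hoxc11 probe they mark a stretch of the homeobox that encodes part of the DNA recognition helix. Coordinates refer to the mm9 build, as in the scanner output.
Hoxa6, chr6:52158194-52158253, minus strand: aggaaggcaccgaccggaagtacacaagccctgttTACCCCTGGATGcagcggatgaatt
Hoxc11, chr15:102787022-102787081, plus strand: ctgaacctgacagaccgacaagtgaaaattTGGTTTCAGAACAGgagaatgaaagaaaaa
The homeobox stretch, with any base allowed at 2 codon positions, was searched on both strands and occurred in 7 of all 55681 probes (0.0126%), of which 2 were HOX probes. The hexapeptide bases, with any base allowed at 2 codon positions, occurred in 7 probes, of which Hoxa6 was the single HOX probe. The Hoxa6 probe and both Hoxb3 probes were well above background in every group, and the Hoxc11 probe on no array.

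The comparison of siLox with scr asks what loss of Lox, the enzyme that cross-links collagen and elastin, did to these genes within slide 1. Hoxb6 showed the largest change, a 1.85-fold fall. Hoxb2, Hoxb3 by 1 of its 2 probes, Hoxb5 and Hoxa3 fell by less, and Hoxa6, Hoxb7 and Hoxc4 were among those that rose. In all 9 probes, 4 higher and 5 lower, passed limma's test at an adjusted p under 0.05 among 22 HOX probes tested, which is 40.9%, beside 32.8% of all 26488 probes tested. By direction the share of all probes called was 15.3% for higher and 17.5% for lower. All 4 arrays of siLox lay on the same side of all 4 scr arrays for 9 HOX probes, 3 higher and 6 lower, beside 34.1% of all probes (15.3% higher and 18.8% lower). The median log2 difference was -0.10 over the 22 HOX probes and -0.04 over all probes, and the median size of the difference was 0.25 and 0.22. The share and the sizes thus lay near those of the array as a whole, and the HOX genes moved in both directions. The count depended on the arrays and the fit, as did the share of all probes called. It was 5 without scr replicate 3 (16.8% of all probes) and 5 without siLox replicate 3 (17.2%). Without scr replicate 4 it was 11 (42.4%), and it was 3 when no filter on detection was set (4.72%). The fit of all 16 arrays called 12, 4 higher and 8 lower, beside 48.6% of all probes, and those added were Hoxa5, Hoxb4 and probe 1 of Hoxb3.

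Hoxb6, a middle gene of the B cluster, was read at chr11:96162563-96162622 (mm9; the files name no exon or UTR). Its level was 2.73, 2.60, 2.51 and 2.33 on the scr arrays and 1.45, 1.63, 1.67 and 1.90 on the siLox arrays. Every siLox array lay below every scr array, and the log2 difference was -0.88 ± 0.12 (SE) with a limma adjusted p of 0.0033. The fall was called under each of the 18 alternatives tried, with differences from -1.04 to -0.81. On slide 2 the levels lay between 2.65 and 2.91.

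Other genes from the front of the B cluster were lower in siLox. Hoxb2, which acts in hindbrain and anterior mesoderm, gave 3.07, 3.19, 3.19 and 3.15 in scr and 2.64, 2.76, 2.79 and 2.83 in siLox. The groups did not overlap, the log2 difference was -0.40 ± 0.06 with an adjusted p of 0.0060, and it was called under all 18 alternatives. Hoxb3 was lower by both probes. Probe 2 gave 0.44, 0.31, 0.34 and 0.39 in scr and -0.03, 0.10, 0.15 and 0.12 in siLox, without overlap, a difference of -0.28 ± 0.06 with an adjusted p of 0.015. Probe 1 gave 0.99, 0.86, 0.93 and 0.67 in scr and 0.55, 0.60, 0.64 and 0.72 in siLox, where 1 siLox array lay above the lowest scr array, and its difference of -0.24 ± 0.08 missed the threshold with an adjusted p of 0.057. Hoxb5, a gene of anterior mesoderm and lung mesenchyme, gave 2.88, 2.68, 2.84 and 2.69 in scr and 2.38, 2.54, 2.53 and 2.64 in siLox. Its groups did not overlap. The difference was -0.25 ± 0.08 with an adjusted p of 0.041, and that call was lost under 8 of 18 alternatives, 6 of which left out 1 array. Hoxb4 gave a difference of -0.12 ± 0.06 that did not pass (adjusted p 0.15).

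Hoxb7, the next gene beyond Hoxb6, moved the other way. It gave 2.21, 2.39, 2.26 and 2.41 in scr and 2.63, 2.63, 2.61 and 2.62 in siLox, so that all 4 siLox arrays lay above every scr array. The difference was 0.30 ± 0.06 with an adjusted p of 0.012. Hoxb8 and Hoxb9, further along the cluster, did not pass, with differences of -0.05 ± 0.61 and 0.15 ± 0.22. For both, single arrays stood apart within the groups, as described further on. In the order of the chromosome the B cluster thus read lower for Hoxb2, Hoxb3, Hoxb5 and Hoxb6 and higher for Hoxb7. Hoxb5os, a non-coding transcript named as antisense to Hoxb5, rose by 0.25 ± 0.06 with an adjusted p of 0.021.

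In the A cluster, Hoxa3, which patterns the pharyngeal region, fell. It gave 3.26, 2.97, 3.03 and 2.90 in scr and 2.51, 2.60, 2.62 and 2.58 in siLox, without overlap. The difference was -0.46 ± 0.08 with an adjusted p of 0.0083. Hoxa6, read in the hexapeptide region by a dim probe, gave -3.98, -3.90, -4.06 and -4.19 in scr and -3.64, -3.41, -3.58 and -3.85 in siLox. These groups did not overlap, with a difference of 0.41 ± 0.10 and an adjusted p of 0.021, a call lost under 7 of 18 alternatives.

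Hoxa5, the member with the best known part in lung development, did not pass. It gave 2.41, 2.13, 2.11 and 1.81 in scr and 1.83, 1.71, 1.85 and 2.04 in siLox, and the groups overlapped through scr replicate 4. The difference was -0.26 ± 0.13 with an adjusted p of 0.15. It passed under 3 of 18 alternatives, at -0.36 (adjusted p 0.032) without scr replicate 4, at -0.42 (0.019) without replicate 4 of both groups, and in the fit of all 16 arrays (0.048). The remaining A cluster genes tested were Hoxa2, Hoxa4, Hoxa7, Hoxa9 and Hoxa11, with differences between -0.32 and -0.06 and adjusted p-values from 0.068 upward. Hoxa11 was the nearest of them to the threshold, at -0.24 ± 0.09.

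All 4 C cluster genes tested had positive differences, and 1 passed. Hoxc4, the front gene of that cluster, gave -0.38, -0.45, -0.56 and -0.51 in scr and -0.05, -0.29, -0.20 and -0.21 in siLox. The groups did not overlap, and the difference was 0.29 ± 0.07 with an adjusted p of 0.020, a call lost under 4 of 18 alternatives, among them without scr replicate 3 and without siLox replicate 3. Hoxc5, Hoxc6 and Hoxc13 did not pass, with differences of 0.21, 0.09 and 0.43. No D cluster probe was bright enough to be tested.

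**Figure D2:**
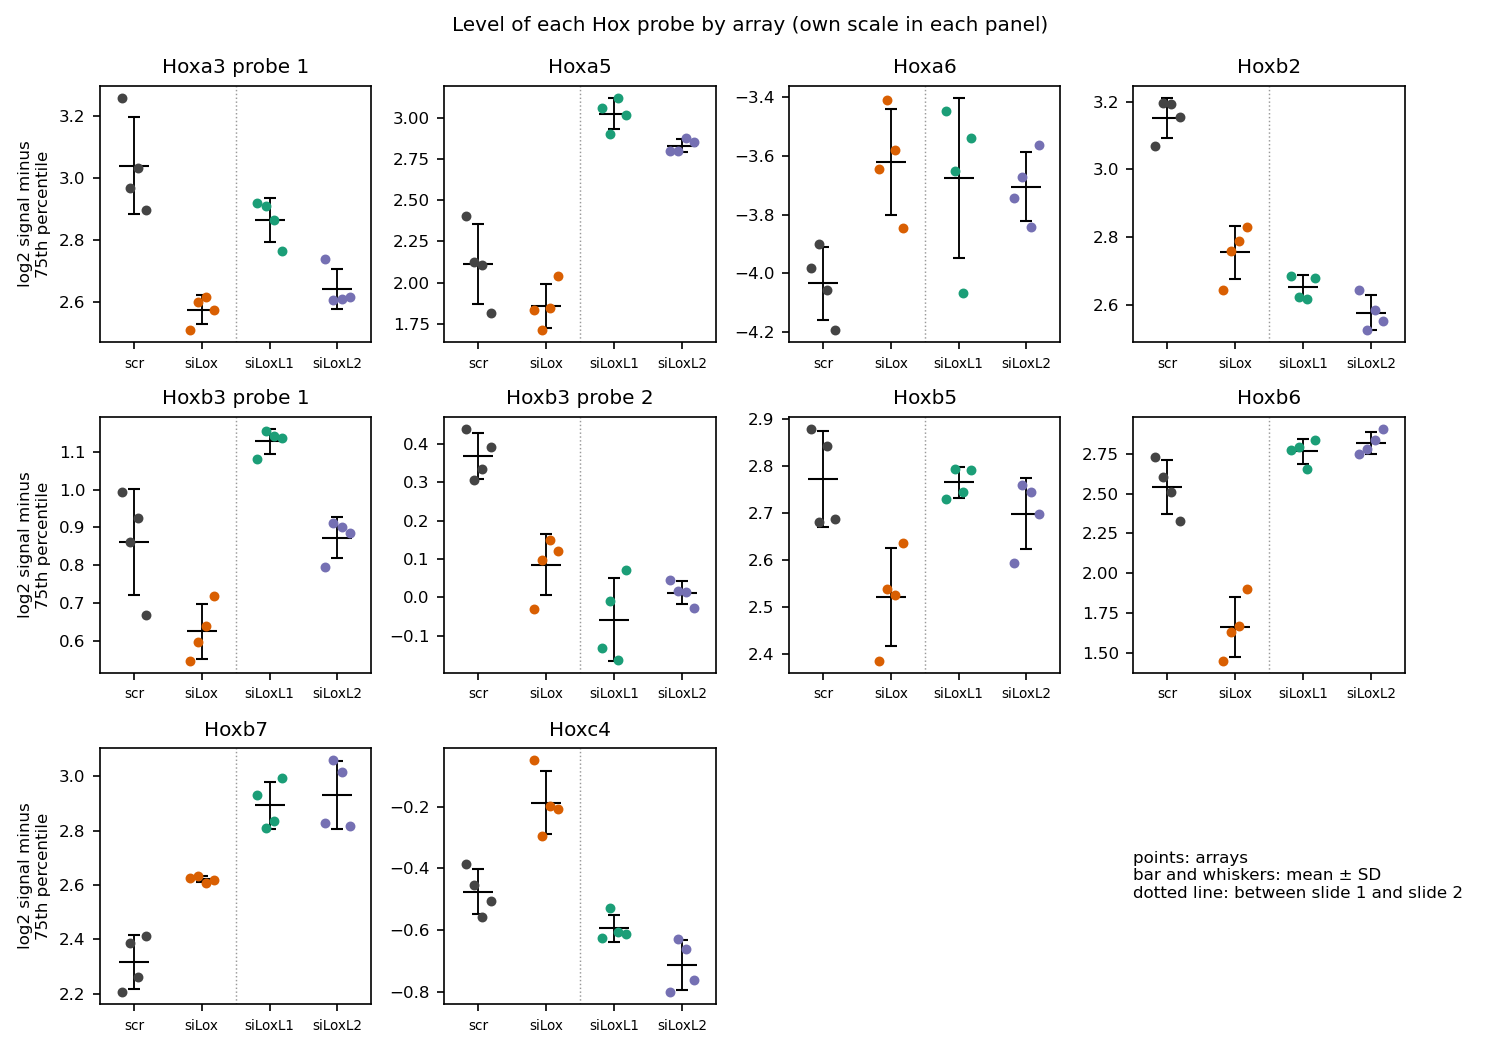
Level of 10 HOX probes on each array (log2 signal minus the array's 75th percentile, own scale in each panel), with bars and whiskers for the mean ± SD of 4 arrays per group. In siLox, Hoxb6 lies between 1.45 and 1.90, below all scr arrays at 2.33 to 2.73, and Hoxb7 lies above scr.

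Markers of other cells moved in the same comparison, in which 32.8% of all probes tested were called, 15.3% higher and 17.5% lower. Of the 5 mesothelial markers 4 fell in siLox, among them Wt1 by 0.34 and Gpm6a by 0.68, and the summed level of the list was 3.27 to 3.42 in scr and 2.96 to 3.05 in siLox. Of the 8 fibroblast markers 4 fell, with summed levels of 9.68 to 9.80 in scr and 9.09 to 9.57 in siLox. Among 5 tested probes for epithelial markers the 2 of Krt8 and the 1 of Krt19 rose, with summed levels of 3.21 to 3.40 in scr and 3.52 to 3.65 in siLox, while Epcam, Cdh1, Sftpb and Sftpc were at background on every array. Of 15 tested leukocyte and macrophage probes 1 rose, that of Marco, by 1.08 ± 0.15, with summed levels of 4.48 to 4.68 and 4.55 to 4.80. No endothelial probe of 5 passed, with 2 at an unadjusted p under 0.05, and the summed levels were 2.46 to 2.76 and 2.18 to 2.64. Of the 6 smooth muscle and pericyte markers 2 fell and 1 rose, with summed levels of 9.21 to 9.43 and 8.93 to 9.29. In these bulk samples fewer cells of a type and less RNA per cell cannot be told apart, and the part of these markers in the HOX differences was not tested.

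Several groups of genes that work with the HOX proteins or on their clusters were read beside them. The TALE homeodomain proteins, which bind DNA together with HOX proteins, were tested by 23 probes of 12 genes. In siLox 9 of these probes fell and 2 rose, a share of 47.8% beside 32.8% of all probes, and their median log2 difference was -0.29 beside -0.04. Pknox2 fell by 0.42, and Tgif2, a repressor of the same class, rose by 0.47 ± 0.09. One Meis3 probe fell by 0.66, while the other 2 gave 0.01 and 0.21 and did not pass, so the direction for Meis3 is uncertain. In the fit of all 16 arrays, which called 48.6% of all probes, 18 TALE probes passed, 4 higher and 14 lower.

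Of the Polycomb proteins, which keep HOX clusters silent, 25 probes of 17 genes were tested and 1 changed, beside 32.8% of all probes. It was 1 of the 2 probes of Pcgf2, which rose by 0.42 ± 0.10, and the list's median difference was 0.07. Of the Trithorax proteins and the demethylases that remove the Polycomb mark, 14 probes of 10 genes were tested and 2 rose. That is 14.3%, beside 32.8% of all probes. Kdm6b, a demethylase of that mark, rose by 0.64 ± 0.17. Kmt2a, a methyltransferase that keeps HOX genes active, rose by 0.46 ± 0.15, with groups that overlapped. The limma adjusted p-values of Kdm6b and Kmt2a were 0.023 and 0.044. In the fit of all 16 arrays, with its 48.6% of all probes called, 8 probes of this list passed, 6 higher and 2 lower.

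Retinoic acid induces front genes of the HOX clusters. Its pathway was read by 19 tested probes of 16 genes, of which 3 rose and 2 fell. That is 26.3%, beside 32.8% of all probes. Aldh1a1, an enzyme that makes retinoic acid, fell by 1.13 ± 0.13, and Cyp26b1, an enzyme that breaks it down, fell by 0.76 ± 0.15. Aldh1a3, another synthesizing enzyme, rose by 0.61, and the receptor gene Rara rose by both probes, by 0.35 and 0.25. In the fit of all 16 arrays 12 probes of this pathway passed, 5 higher and 7 lower, beside the same 48.6% of all probes. Among other transcription factors that mark body regions and lung mesenchyme, 5 of 16 tested probes rose and 4 fell. That is 56.25%, beside 32.8% of all probes. Gli1, a hedgehog target, rose by 1.81 ± 0.55 and Pitx1, a hindlimb gene, by 1.44 ± 0.33. Emx2 rose by 0.69 and Gli2 fell by 0.88. For Pitx1 and Gli2 the groups overlapped. The mean of Pitx1 in scr, -4.79, lay near the limit of detection, so the size of its rise is uncertain. Genes that lie beside the clusters on the chromosome were tested by 23 probes, of which 5 fell and 1 rose. That is 26.1%, beside the same 32.8% of all probes. Mtx2, next to the D cluster, fell by 0.45 ± 0.06, Snx10 by 0.35 and Smug1 by 0.22, and Skap1, next to the B cluster, rose by 0.32. Of the non-coding transcripts of the clusters 4 of 11 probes were bright enough to be tested, and Hoxb5os was the 1 that passed. The ParaHox and Cdx genes, relatives that lie elsewhere in the genome, had no probe bright enough to be tested here.

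The comparison of siLoxL1 with siLoxL2 lay within slide 2 and sets the 2 knockdowns against each other, with no control group on the slide. HOX differences were small. Of 26 probes of 23 genes tested, 3 passed, 2 higher and 1 lower in siLoxL1. Those that were higher were Hoxa3 and 1 probe of Hoxb3. That is 11.5% of the HOX probes, beside 6.86% of all 32214 probes tested (4.5% higher and 2.36% lower). All 4 arrays of siLoxL1 lay on the same side of all 4 siLoxL2 arrays for 5 HOX probes, 4 higher and 1 lower, beside 19% of all probes (13.3% higher and 5.71% lower). The median log2 difference was 0.10 over the HOX probes and 0.03 over all, and the median sizes were 0.13 and 0.11. The count of 3, with 6 probes at an unadjusted p under 0.05, fell to 0 without siLoxL1 replicate 2, without siLoxL1 replicate 3 or without siLoxL2 replicate 4 (5, 5 and 6 at an unadjusted p under 0.05 in limma), and to 1 without any of siLoxL1 replicate 1, siLoxL1 replicate 4, siLoxL2 replicate 2 and siLoxL2 replicate 3. With quantile normalization 1 was higher and 1 lower. With the replicate number as a block in the fit 0 HOX probes passed, beside 1.79% of all probes, and 8 had an unadjusted p under 0.05 in limma.

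Hoxa3 gave 2.92, 2.91, 2.86 and 2.77 in siLoxL1 and 2.74, 2.61, 2.61 and 2.62 in siLoxL2. The groups did not overlap, and the difference was 0.22 ± 0.05 with a limma adjusted p of 0.047, a call lost under 13 of 17 alternatives. Hoxb3 probe 1 gave 1.08, 1.15, 1.14 and 1.14 in siLoxL1 and 0.80, 0.91, 0.90 and 0.89 in siLoxL2. The difference was 0.25 ± 0.04 with an adjusted p of 0.018. That call was lost under 5 of 17 alternatives, among them the replicate block. Probe 2 of the same gene did not show the difference, with -0.07 ± 0.06 and an adjusted p of 0.49, so the direction for Hoxb3 is uncertain.

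The HOX probes next in order of p did not pass. Hoxa5 gave 3.06, 2.90, 3.12 and 3.02 in siLoxL1 and 2.80, 2.80, 2.88 and 2.86 in siLoxL2. All siLoxL1 arrays were higher, with a difference of 0.19 ± 0.06 and an adjusted p of 0.075. Hoxb13 gave -1.36, -1.46, -1.68 and -1.53 in siLoxL1 and -1.82, -1.80, -1.65 and -1.70 in siLoxL2, with overlap through 1 array of siLoxL1 and a difference of 0.24 ± 0.08 (adjusted p 0.10). Hoxc4 gave -0.63, -0.53, -0.61 and -0.61 in siLoxL1 and -0.80, -0.63, -0.66 and -0.76 in siLoxL2. It was higher on every siLoxL1 array by a small margin, and the difference of 0.12 ± 0.05 had an adjusted p of 0.19. Hoxb6, the gene with the largest change in siLox, differed by -0.05 ± 0.06 here and did not pass.

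**Figure D3:**
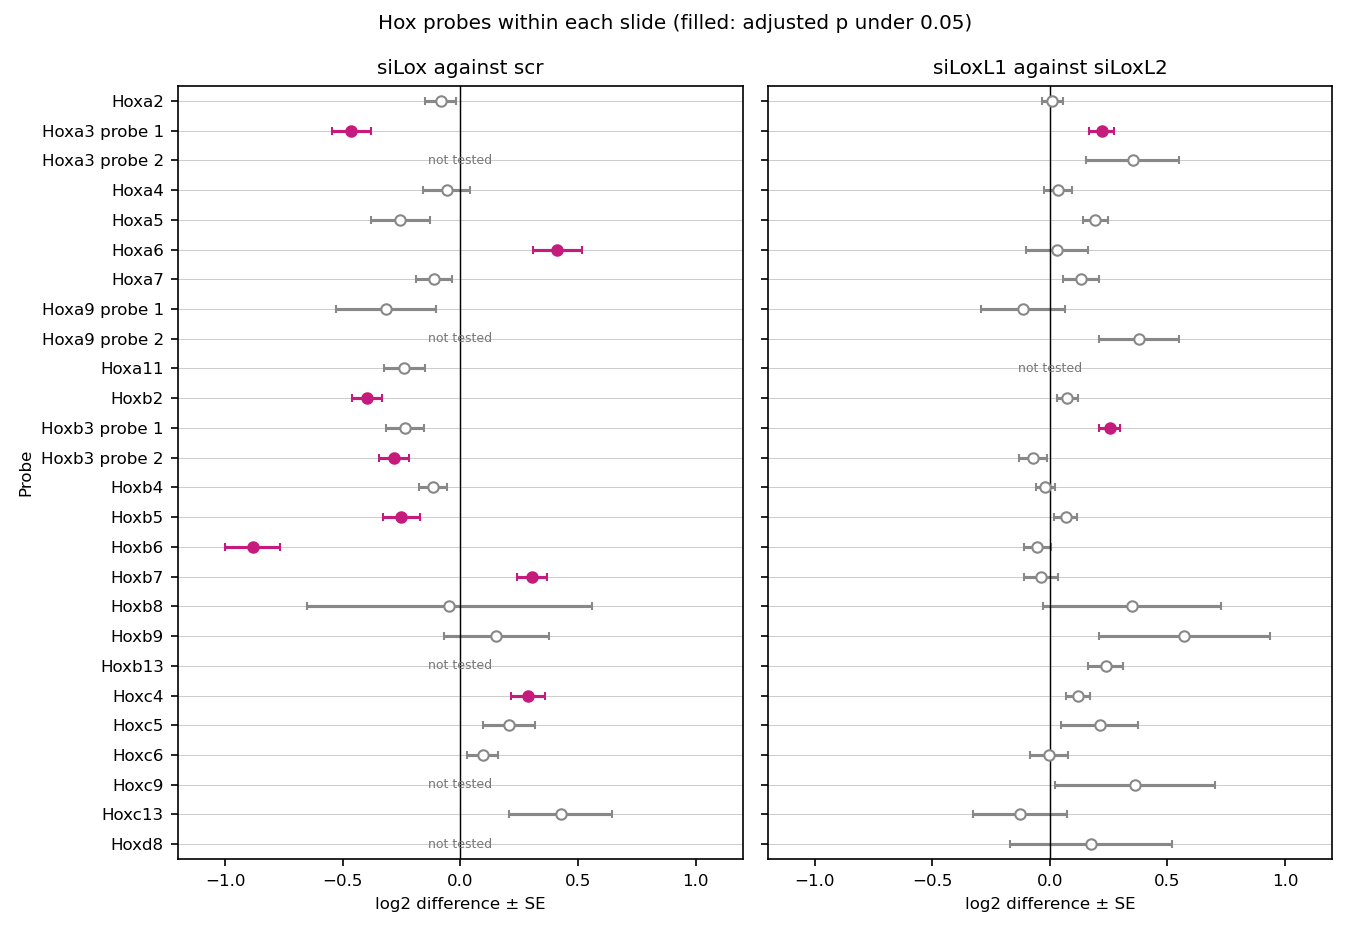
Log2 difference ± SE of HOX probes tested within a slide, for siLox against scr (left) and siLoxL1 against siLoxL2 (right), in the order of the clusters; filled points have an adjusted p under 0.05. Hoxb6 at -0.88 is the largest difference on the left, and the 2 filled points on the right lie at 0.22 and 0.25.

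In the same comparison 6.86% of all probes were called, 4.5% higher and 2.36% lower. Of 23 TALE probes 2 (8.70%) were higher in siLoxL1, among them 1 of the 2 probes of Pbx3, by 0.21. With quantile normalization no TALE probe was higher and 1 was lower. Of 29 Polycomb probes 3 were higher and 3 lower, a share of 20.7%. Phc2 was higher by 0.25 ± 0.05 by its brightest probe, and also by a dim probe that was well above background on no siLoxL2 array. Of those that were lower, 1 of the 2 Pcgf2 probes gave -0.36, and 1 Phc3 probe gave -0.30 where the other 2 gave 0.10 and 0.20. With quantile normalization 1 Polycomb probe was higher and 2 lower. Dpy30, a subunit of the Trithorax methyltransferase complexes, was higher by 0.23 by 1 of its 2 probes, and Foxf2, a lung mesenchyme factor, by 0.37 ± 0.05. Crabp2, which carries retinoic acid into the nucleus, gave -0.29. No gene beside the clusters and no non-coding transcript of the clusters passed limma's test, where 5 of 26 and 1 of 4 probes had an unadjusted p under 0.05, with Calcoco2 at -0.30 and Snx11 at -0.26 the largest of the first and HOTAIR at -0.30 and Hoxb5os at 0.14 the largest of the second. Cdx1 was the single ParaHox or Cdx gene tested, at -0.06 ± 0.21. No fibroblast, mesothelial, epithelial or smooth muscle marker passed, with 1, 1, 0 and 1 probes at an unadjusted p under 0.05, and the summed mesothelial level was 2.32 to 2.71 in siLoxL1 and 2.35 to 2.49 in siLoxL2. Among the other marker lists, Tek and Vwf of the endothelial list and Emr1 of the macrophage list were lower in siLoxL1, by differences of -0.86, -0.50 and -0.37. The mean of Tek in siLoxL1, -5.78, lay near the limit of detection, so the size of its difference is uncertain.

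Across the slides the HOX genes differed far more, but so did the whole array. Of 27 HOX probes of 24 genes tested in the fit of all 16 arrays, 21 passed for siLoxL1 against scr, 13 higher and 8 lower, which is 77.8%, beside 62.5% of all 32430 probes (40.5% higher and 22% lower). For siLoxL2 against scr 20 passed, 11 higher and 9 lower, which is 74.1%, beside 62.3% (38.8% higher and 23.5% lower). Several of these probes, among them Hoxa11, Hoxb13, Hoxd8 and Hoxa9 probe 2, met the detection rule only in groups of 1 slide. Their calls are therefore partly set by that rule. Among probes well above background on all 16 arrays, 17 of 20 HOX probes passed in either comparison, beside 71.4% and 70.8% of all such probes. Groups were free of overlap with scr for 17 HOX probes in siLoxL1, 10 higher and 7 lower, beside 55.6% of all (36.3% and 19.3%), and for 19 in siLoxL2, 10 higher and 9 lower, beside 54.9% (34.8% and 20.1%). With normexp background correction the split for siLoxL2 was 8 higher and 10 lower. The median log2 difference over all probes was 0.18 and 0.16, and quantile normalization brought the first to 0.08. The HOX medians were 0.22 and 0.09. Both comparisons use the same scr arrays, and neither can separate the siRNA from the slide, so the values that follow are given side by side.

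Hoxa11 and Hoxb13 changed places between the slides. Hoxa11, read by 10 spots per array, gave -3.07, -3.04, -2.83 and -3.00 in scr and -3.02, -3.28, -3.32 and -3.28 in siLox. It was not well above background on any array of siLoxL1 (-6.97, -6.84, -7.43 and -6.75) or siLoxL2 (-7.17, -6.58, -6.44 and -6.76). Its level in scr was at least 8.33-fold higher than in siLoxL1 and at least 7.67-fold higher than in siLoxL2, where the bound uses, on each dim array, the lowest signal that was well above background. Hoxa11os, the antisense transcript of Hoxa11, was also lower on slide 2, at means of -3.91 in both groups against -2.35 in scr and -2.39 in siLox. Hoxb5os did not go with its gene in this way. It was higher on slide 2, at means of 4.42 in siLoxL1 and 4.28 in siLoxL2 against 2.86 in scr, while Hoxb5 passed in neither comparison.

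Hoxb13 moved the opposite way. It gave -4.42, -4.93, -4.84 and -4.43 in scr, with 1 array well above background, and -5.30, -4.87, -4.92 and -4.32 in siLox, with none. Its levels on the 8 arrays of slide 2, listed above, lay between -1.82 and -1.36. The fitted differences from scr were 3.14 ± 0.17 for siLoxL1 and 2.91 ± 0.17 for siLoxL2. Since 3 of the 4 scr arrays were not well above background, the size of these differences is uncertain. Hoxd8 passed the mark on slide 2 only, at levels close to the limit of detection of slide 1, and its bound came out under 1, so that no fold is given.

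Most other differences across slides were smaller. Hoxc5 gave -2.94, -2.61, -2.87 and -2.58 in scr and -2.58, -2.45, -2.74 and -2.40 in siLox. On slide 2 it gave -4.18, -3.82, -4.05 and -4.55 in siLoxL1 and -4.43, -4.22, -4.16 and -4.63 in siLoxL2, below every array of slide 1. Its differences from scr were -1.40 ± 0.15 and -1.61 ± 0.15, and those of Hoxc13 were -1.21 ± 0.23 and -1.08 ± 0.23. Hoxa5 was higher by 0.91 and 0.72, Hoxa7 by 0.76 and 0.63, Hoxb4 by 0.69 and 0.71 and Hoxb7 by 0.57 and 0.61. Hoxb2 was lower by differences of -0.50 and -0.58 and Hoxa4 by -0.40 and -0.43. For Hoxb3 the 2 probes went in opposite directions in siLoxL1 (0.27 and -0.43), so no direction can be given for it. Hoxa9 probe 1 was lower, by differences of -0.81 ± 0.21 and -0.69 ± 0.21. Its probe 2 was called higher in siLoxL1 (0.84 ± 0.24), but it was well above background on no scr array and the groups overlapped. No fold is therefore given for probe 2, and the direction for Hoxa9 is uncertain. Hoxa2 and Hoxb5 passed in neither comparison.

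Markers differed between the slides as well. The mesothelial marker Wt1 had means of 2.45 in scr and 2.11 in siLox against 0.07 in siLoxL1 and -0.18 in siLoxL2. Of the 5 mesothelial probes 4 were lower on slide 2 than in scr in both comparisons, beside 22% and 23.5% of all probes. Krt8, by its brighter probe, had a mean of 0.96 in scr against -3.28 and -3.40 on slide 2, and Krt19 a mean of 1.68 against 4.01 and 4.07. Their part in the HOX differences between the slides was not tested.

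Hoxb8 and Hoxb9 differed between single arrays of the same group. Hoxb8, a middle gene of the B cluster, gave 1.16, -1.18, -1.14 and -1.31 in scr and 0.51, -0.91, -1.16 and -1.08 in siLox. Replicate 1 stood above the other 3 arrays in both groups of slide 1. In siLoxL1 it gave 1.56, 2.33, 1.46 and 1.92, and in siLoxL2 1.09, 2.63, 1.17 and 0.98. On slide 2 it was replicate 2 that was highest in both groups. The SD of Hoxb8 within scr was 1.19, larger than that of 99.9% of the 25728 probes well above background there, whose median SD was 0.15.

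Hoxb9, its neighbour on the chromosome, gave -0.06, -0.95, -0.77 and -0.92 on the scr arrays and -0.09, -0.60, -0.62 and -0.78 on the siLox arrays. The siLoxL1 arrays gave 0.13, 1.07, 0.33 and 0.98, and those of siLoxL2 gave -0.26, 1.09, -0.21 and -0.40. The highest array of each group was the same as for Hoxb8. The levels of Hoxb7 on the other side of Hoxb8 did not stand out on these arrays: scr replicate 1 was the lowest of its group at 2.21, and siLoxL2 replicate 2 stood at 3.06 beside 3.01 for replicate 3. Over the 16 arrays the deviations of Hoxb9 from its group means correlated with those of Hoxb8 at r = 0.87, which is a description of arrays that share groups and slides. For siLoxL1 against scr the difference of Hoxb8 was 2.43 ± 0.55 with all arrays and 3.03 without scr replicate 1, and for siLoxL2 it was 2.08 ± 0.55 and 2.68. Within slide 1 the Hoxb8 difference of siLox was -0.05 with all arrays, 0.55 without scr replicate 1 and -0.44 without siLox replicate 1, and none of these passed.

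The promoter of Hoxb8 is shown because single arrays of a group differed widely at its probe. Of the 39 genes, 22 had a promoter in the RefSeq table (GRCm38.p6), with 24 promoters in all. The 250 bases before the Hoxb8 start lie at chr11:96281655-96281904 on the plus strand. Capitals mark each match to TATAAA and CCAAT, searched on both strands, and TTTATA is TATAAA on the other strand.
Hoxb8: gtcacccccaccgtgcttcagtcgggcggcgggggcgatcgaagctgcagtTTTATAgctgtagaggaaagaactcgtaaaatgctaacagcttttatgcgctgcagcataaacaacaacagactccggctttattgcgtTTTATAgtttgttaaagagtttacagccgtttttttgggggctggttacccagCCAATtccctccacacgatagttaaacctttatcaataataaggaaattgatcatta
This window held 12 CpG pairs, beside a median of 12.5 over the 24 HOX promoters and 6 over all 32851 promoters in the table. TATAAA occurred in 4 of the 24 HOX promoters and in 12.4% of all, and CCAAT in 14 of the 24 and in 33.8% of all. The 8 promoters of HOX genes detected in all groups held a median of 13 CpG pairs (6 to 28), and the 13 promoters of genes detected in none held a median of 13 (2 to 35). These matches describe the letters in the window and no binding was measured.

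**Figure D4:**
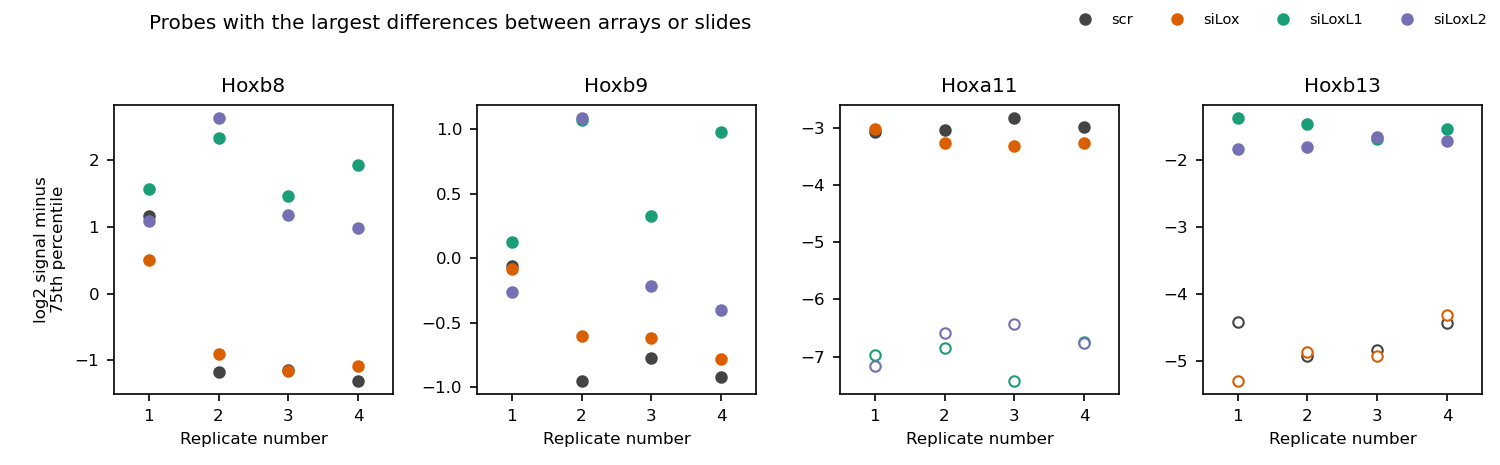
Level of Hoxb8, Hoxb9, Hoxa11 and Hoxb13 on each array by replicate number (log2 signal minus the array's 75th percentile), coloured by group; open points are groups in which the probe was not well above background on all 4 arrays. For Hoxb8, replicate 1 is high in scr and siLox and replicate 2 in siLoxL1 and siLoxL2, while Hoxa11 and Hoxb13 split by slide.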

How the data were processed

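Single-colour Agilent arrays of 16 samples were read from the scanner files. Per the file headers and the submitters' processing notes they hold intensity values of Agilent Feature Extraction 10.7.3.1, with the deposited processed signal already background-corrected on the linear scale, and flags for spots well above background. The deposited value table holds log2 values that the authors had quantile-normalized as far as the values show (sorted columns differ by at most 0.000965) and served as an alternative. Control spots and outlier-flagged spots were left out, log2 signals were set against each array's 75th percentile, and spots of a probe were averaged. Probes well above background on all 4 arrays of a group were tested with limma 3.58.1 in R 4.3.3 and Benjamini-Hochberg adjustment over all probes tested, with a threshold of 0.05: within slides on 8 arrays, across slides on all 16. The scripts were tested on simulated data. Gene names came from the files of slide 1, since 3548 spots were named differently in those of slide 2; of the 45 HOX probes 44 had the same name in both, and Hoxa3 probe 2 did not. Probe positions are mm9. Named HOX probes were those that passed within a slide, filled up to 6 by lowest p where fewer passed, and Hoxa5; of the other lists, up to 4 passing genes with the largest difference, or 2 where none passed. Members and lists were chosen with earlier results of these data known. The number of arrays limits the precision. Counts cover all members; some named results are not reported here.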

Additional observations from a re-analysis of the deposited data

Results flagged for a closer look

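In 7 of 92 sets of 4 values (a HOX probe well above background in a group), 1 array lay far from the other 3 by Dixon's criterion, which chance meets in about 1 of 20 sets. Hoxb8 stood at 1.16 in scr replicate 1, where the others lay between -1.31 and -1.14, and at 0.51 in siLox replicate 1, where the others lay between -1.16 and -0.91. In siLoxL2 replicate 2 Hoxb8 stood at 2.63 (others 0.98 to 1.17) and Hoxb9 at 1.09 (others -0.40 to -0.21). The other 3 were small: Hoxa3 probe 1 at 2.74 in siLoxL2 replicate 1 (others 2.61 to 2.62), Hoxa7 at 2.21 in siLox replicate 1 (others 2.36) and Hoxa11 at -3.02 in siLox replicate 1 (others -3.32 to -3.28).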

How the results depend on the processing

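No called HOX difference changed sign under the alternatives run. For siLox against scr, the count of 9 HOX probes was 3 without a detection filter and 3 with a replicate block. It was 12 in the fit of all 16 arrays, and ranged from 5 to 11 when 1 array was left out. The share of all probes called, 32.8% in the main fit, was 4.72% without a detection filter and 48.6% with all 16 arrays. With 1 array left out that share lay between 16.8% and 42.4%. For siLoxL1 against siLoxL2, the count of 3 was 1 in the fit of all 16 arrays and ranged from 0 to 2 with 1 array left out. It was 0 without a detection filter and 0 with a replicate block (limma, 9 and 8 probes at an unadjusted p under 0.05). Of all probes, 3.19% were called with all 16 arrays, 0.741% without a filter and 1.85% to 4.16% with 1 array left out. Without a filter 35 of 45 HOX probes passed for siLoxL1 against scr, 13 higher and 22 lower. For siLoxL2 against scr 33 passed, 11 higher and 22 lower. Beside these, 62.4% and 61.6% of all probes were called. The added HOX probes include Hoxb1, Hoxd1, Hoxd3 and Hoxd12, which were well above background on no array, so no difference can be read from them. The replicate number was not taken as a pairing: same-numbered arrays of siLox and scr had deviations correlated between -0.15 and -0.0036, and those of siLoxL1 and siLoxL2 between 0.039 and 0.20. Of the siLoxL1 arrays 3 of 4 correlated best with their own number in siLoxL2, and replicate 4 did not (0.039 against 0.042), while no siLox array did so in scr. The block left 4.93% of all probes called in the first comparison and 1.79% in the second; across slides it kept 21 and 20 HOX probes. The number of HOX genes detected, 20 to 23 by group, lay between 18 and 28 under the other detection rules, each within 1.5 times that group's own number. The cause of these shifts was not tested. Signal over background limits the D cluster and the posterior A and C genes, for which a low level cannot be told from none.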

Other observations

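The probes whose deviations from the group means were most like those of Hoxb8 were picked after the values were seen, among 24724 probes well above background in all groups, and are given as a description. They were Pigt (r = 0.96 over 16 arrays), Hspa4 (0.95), Copg2 (0.94), Mid1 (0.94) and Raly (0.93), which lie on chromosomes 2, 11, 6, X and 2, and Hoxb9 ranked 38 with 0.87. Hspa4, a heat shock protein gene, gave 2.30, 0.28, 0.71 and 0.21 in scr and 1.46, 0.44, 0.24 and 0.45 in siLox. In siLoxL1 it gave 2.11, 3.27, 2.79 and 3.08, and in siLoxL2 2.03, 3.25, 2.23 and 1.74. As for Hoxb8, replicate 1 was highest on slide 1 in both groups and replicate 2 on slide 2.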
